A study of Mus musculus with 6 samples.

Results

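The genes described here encode enzymes and carriers of the TCA (tricarboxylic acid) cycle, of pyruvate entry and of glutamate and glutamine metabolism. They were chosen by name as a list of 33 genes, without isocitrate dehydrogenases and succinate dehydrogenase, and all 33 were among the 34745 genes of the deposited table. The study compared peritoneal macrophages, phagocytes of the abdominal cavity, from C57BL/6 mice after 24 h with vehicle (control) or with 0.1 mM R-2-hydroxyglutarate (R-2-HG; treated). RNA was sequenced from 3 control and 3 treated libraries, each with a replicate number from its title. Apart from R-2-HG the labels give the groups no difference in strain, cells or time, and they do not say whether the 3 libraries came from separate animals or cultures. A p-value therefore measures only the spread between these libraries, which may be technical.

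In the TCA cycle, pyruvate enters as acetyl-CoA or oxaloacetate, citrate is oxidised stepwise, and 2-oxoglutarate is turned into succinyl-CoA by a dehydrogenase complex. Glutamate dehydrogenase and the transaminases interconvert glutamate and 2-oxoglutarate, and so connect the cycle to amino acids. R-2-HG is made by mutant isocitrate dehydrogenases, resembles 2-oxoglutarate in structure and competes with it in many enzymes that use it. Macrophages are known for changes in this pathway on activation, when citrate and succinate can build up. The list was read with the enzymes that make or use 2-oxoglutarate apart from the rest.

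Levels are in FPKM (fragments scaled to transcript length and to the mapped fragments of the library). Since length is divided out, they may be compared between genes, but only roughly. An unlike mix of isoforms or reads shared with an overlapping gene can still shift them. The spacing of low values put the depth at 13490000 to 16440000 fragments per library, at which 1 fragment of a 2 kb transcript is worth 0.0304 to 0.0371 FPKM. The 5 macrophage markers checked (Lyz2, Cd68, Csf1r, Adgre1 and Itgam) summed to between 20215 and 22765 FPKM in control cells and between 18739 and 25520 FPKM in treated cells. Most of each sum was Lyz2, at 16924 to 23901 FPKM. Itgam stood at 44.4 FPKM in treated library 1 and at 88.4 to 113 FPKM in the other 5 libraries. Other cells were also represented. The 4 fibroblast markers, all with a mean of at least 1 FPKM, summed to 81.1, 21.9 and 3.51 FPKM in control libraries 1, 2 and 3 and to 69.2, 11.1 and 3.81 FPKM in treated libraries 1, 2 and 3. The 5 B cell markers summed to 34.0 FPKM in control library 1 and to between 5.82 and 10.3 FPKM in the other 5 libraries, and 4 of them had a mean under 1 FPKM. The 4 neutrophil markers summed to between 9.74 and 17.5 FPKM. Most of that was S100a8 (8.69 to 16.2 FPKM), the only 1 of them with a mean of at least 1 FPKM. The sums of the mesothelial and of the T and NK cell markers stayed at or below 3.64 and 2.10 FPKM. None of these markers had a mean of at least 1 FPKM. No marker of these lists was at 0 in all libraries, but several were at 0 in some. The neutrophil marker Ly6g was above 0 only in treated library 1, at 0.0958 FPKM. Msln was at 0 in control libraries 1 and 2 and treated library 3. Upk3b, Krt19, Cd3d and Nkg7 were at 0 in treated libraries 2 and 3. In bulk RNA of this kind, fewer cells of a type and less RNA per cell cannot be told apart.

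None of the 33 genes passed the test for a difference between R-2-HG and vehicle. Of them, 30 had a mean of at least 1 FPKM over the 6 libraries and were tested with limma among 9701 genes, and 0 of the 30 reached an adjusted p under 0.05 (the smallest was 0.99998). Across all genes tested the share was also 0%. At an unadjusted p under 0.05, 0 of the 30 were found, against 140 of all genes tested (1.44%). With the replicate number of the titles as a block, 0 of the 30 had an adjusted p under 0.05, as did 0% of all genes tested. In that fit 1 member, Me2, had an unadjusted p under 0.05, against 329 of all genes tested (3.39%). The shares of all genes in both fits lie below the 0.05 that evenly spread p-values would give, and the reason was not tested. With 3 libraries per group, 0 calls do not show that no gene differs.

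Of the 30, 20 had a lower and 10 a higher mean with R-2-HG, and their median log2 change was -0.019, beside -0.004 for all genes tested, of which 51.6% had a lower mean. Changes are differences of the group means of log2(FPKM + 1), treated minus control, and understate what happens in low genes. All 30 changes lay between -0.32 and 0.31. The 95% intervals of all 30 lay within 1 unit of 0. Those of 22 lay within 0.5, a share of 73.3% beside 60.2% of all genes tested. When only means from 10 FPKM upwards were counted, the shares lay closer together. They were 82.4% of 17 members and 77.7% of 3417 tested genes. The difference between these shares was not tested. Among all 30 the lowest bound was that of Gpt at -0.74 and the highest that of Slc25a13 at 0.74.

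**Figure D1:**
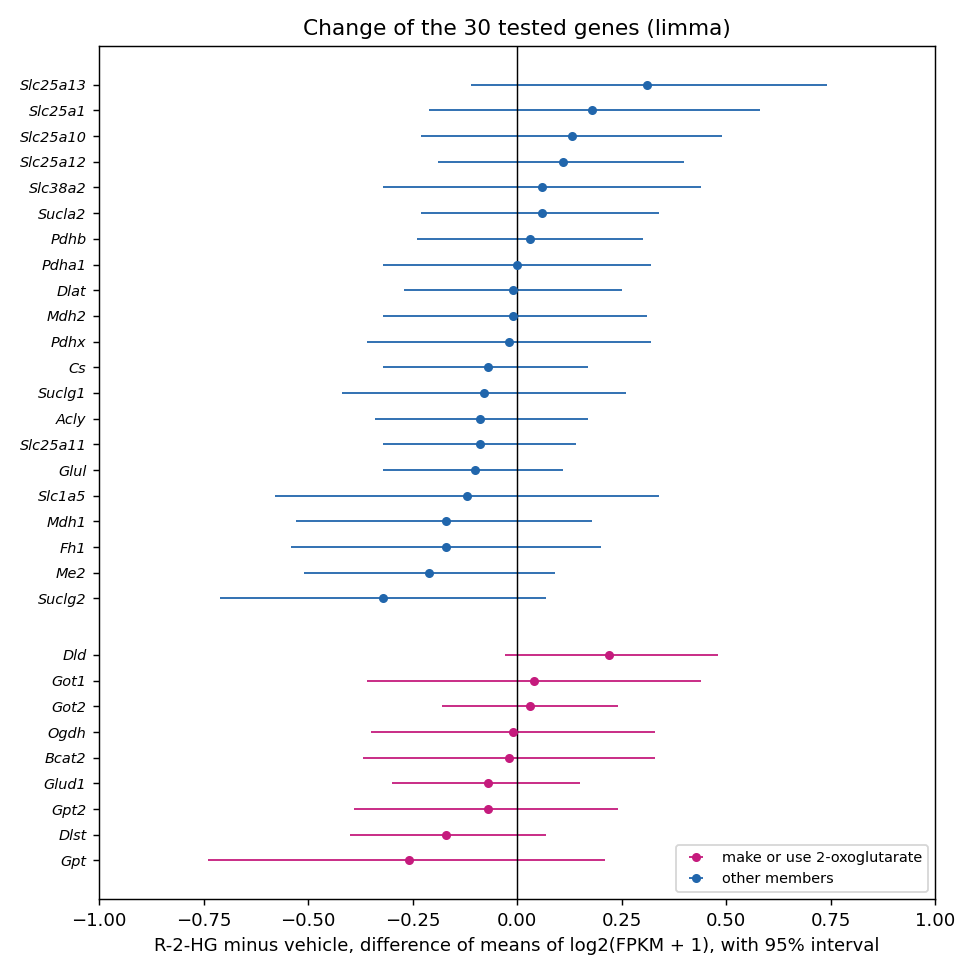
Change of the 30 tested genes, with points for the difference of group means of log2(FPKM + 1) and bars for limma's 95% interval, and with the 9 tested enzymes that make or use 2-oxoglutarate below the other 21. Every interval includes 0, and the points lie between -0.32 and 0.31.

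Of the 9 tested genes that make or use 2-oxoglutarate, from 10 listed, 6 were lower and 3 higher after treatment by their means (median log2 change -0.019). Of the 21 tested among the other 23 genes, 14 were lower and 7 higher (median -0.020). Without control library 1 the medians were -0.10 and -0.01 (2-oxoglutarate enzymes first), and without control library 2 they were 0.03 and -0.06. The difference between them was not tested.

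Where the groups did not overlap, the members were Dlst and Glul, both lower with R-2-HG. They make 2 of 30, beside 2.66% of all genes tested that were lower without overlap, and 0 of 30 were higher without overlap, beside 2.03% of all genes. Among libraries of one replicate number, 7 of the 30 were lower with R-2-HG in all 3 pairs, beside 11.8% of all genes tested. These 7 were Cs, Suclg2, Fh1, Me2, Acly, Dlst and Glul. The carrier gene Slc25a13 was higher in all 3 pairs, 1 of 30, beside 11.7% of all genes tested. None of these counts was tested.

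Promoters of 4 members are shown because their values are discussed most below: Dlst and Dld, 2 subunits of the same dehydrogenase complex whose changes had opposite signs, Suclg2, with the most negative change, and Glul, the most abundant member. Each is the 250 bases before the RefSeq start site in GRCm38.p6, 5′ to 3′ on the strand of the gene. Capitals mark a GC box (GGGCGG or its reverse complement) or a CCAAT box (CCAAT or its reverse complement). The regions are chr12:85110583-85110832 (plus strand) for Dlst, chr12:31351472-31351721 (minus strand) for Dld, chr6:95718847-95719096 (minus strand) for Suclg2 and chr1:153899679-153899928 (plus strand) for Glul.
Dlst: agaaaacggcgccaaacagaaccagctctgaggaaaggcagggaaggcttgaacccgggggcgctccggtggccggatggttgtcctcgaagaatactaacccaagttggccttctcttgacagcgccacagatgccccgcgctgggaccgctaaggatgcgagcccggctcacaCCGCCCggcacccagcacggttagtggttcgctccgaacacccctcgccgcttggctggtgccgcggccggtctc
Dld: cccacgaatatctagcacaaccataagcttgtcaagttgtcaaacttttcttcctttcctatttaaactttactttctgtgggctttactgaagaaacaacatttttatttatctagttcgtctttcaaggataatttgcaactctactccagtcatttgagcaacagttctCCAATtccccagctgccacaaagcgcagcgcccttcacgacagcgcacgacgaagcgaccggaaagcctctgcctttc
Suclg2: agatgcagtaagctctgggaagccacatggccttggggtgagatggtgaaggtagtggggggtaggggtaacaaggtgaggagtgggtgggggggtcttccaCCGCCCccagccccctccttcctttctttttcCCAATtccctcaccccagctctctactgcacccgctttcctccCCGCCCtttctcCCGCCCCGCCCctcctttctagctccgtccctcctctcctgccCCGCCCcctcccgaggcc
Glul: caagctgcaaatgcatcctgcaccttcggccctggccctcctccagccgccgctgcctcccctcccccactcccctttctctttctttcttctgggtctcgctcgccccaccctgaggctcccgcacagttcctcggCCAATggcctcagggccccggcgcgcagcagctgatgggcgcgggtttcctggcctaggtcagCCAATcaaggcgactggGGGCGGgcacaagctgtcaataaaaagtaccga

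The Dlst promoter held 64.8% G and C and a GC box at 70 to 75 bases before the start, whereas the Dld promoter held 43.6% G and C, no GC box and a CCAAT box at 74 to 78 bases. The Suclg2 promoter held 5 GC boxes, 2 of which share a base, and 1 CCAAT box. Glul had CCAAT boxes at 46 to 50 and at 109 to 113 bases and a GC box at 28 to 33 bases before the start. Of the 33 members, 30 matched the promoter table, with 39 start sites. A GC box was present in 53.8% of these 39 and in 32.7% of all 32851 promoters of the same length, and a CCAAT box in 46.2% and 33.8%. The E-box CACGTG was present in 15.4% and 6.02%, namely at Ogdh, Pcx, Slc25a1 and Slc25a13, where 6 start sites of 4 genes hold it. The ERR motif AAGGTCA (4.08% of all promoters) and the ETS motif CCGGAAG (6.91%) were each present in 2.56% of the 39, at Got1 and at Glud1. All motifs were searched on both strands. Median G and C content was 59.2% for members and 52.4% for all promoters.

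Levels of the members spanned a wide range. Glul stood highest, with a mean over the 6 libraries of 82.3 FPKM, followed by Cs (61.6 FPKM), Glud1 (55.9 FPKM), Dld (41.6 FPKM) and Dlst (37.1 FPKM). The libraries of Cs and Glud1 overlapped, as did those of Dld and Dlst, whereas those of Glul lay above all other members. Of the 33 members 17 had a mean of at least 10 FPKM. Below the filter for testing were Me1 (0.992 FPKM), Pcx (0.494 FPKM) and Bcat1 (0.241 FPKM), and Gpt lay just above it (1.07 FPKM). Got2 varied least, by 0.10 between its highest and lowest library on the log2(FPKM + 1) scale, and Me1 (0.78), Slc25a13 (0.76) and Gpt (0.70) varied most.

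**Figure D2:**
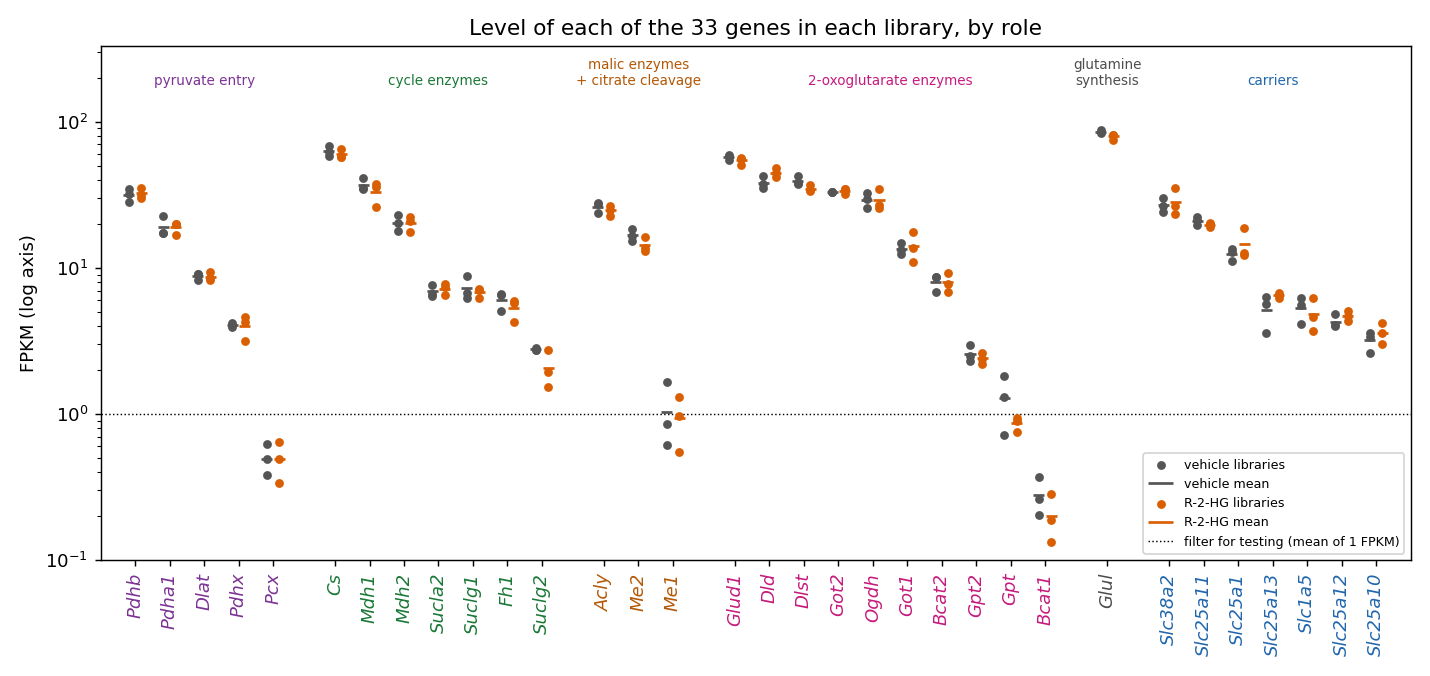
FPKM (log axis) of the 33 genes in each of the 6 libraries, grouped by role, with short lines for the group means and a dotted line at the filter of 1 FPKM. Glul, Cs and Glud1 stand highest, and Me1, Pcx and Bcat1 have a mean under 1 FPKM.

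Among the 5 genes of pyruvate entry 4 were tested and 0 passed. The pyruvate dehydrogenase complex turns pyruvate into acetyl-CoA. Pdhb, the beta subunit of its first enzyme, stood at 28.1, 34.5 and 32.1 FPKM in control libraries 1, 2 and 3 and at 31.5, 30.1 and 35.3 FPKM in treated libraries 1, 2 and 3. The groups overlapped (log2 change 0.03, SE 0.12). Pdhx, which anchors the third enzyme of the complex, stood at 4.20, 4.07 and 3.91 FPKM in control cells and at 4.29, 4.63 and 3.17 FPKM in treated cells, where 1 library was the lowest and 2 were the highest of all 6. The alpha subunit gene Pdha1 averaged 19.0 ± 3.0 and 18.9 ± 1.91 FPKM (SD, n = 3, control first), and Dlat, the acetyltransferase of the core, 8.80 ± 0.508 and 8.72 ± 0.550 FPKM. Pyruvate carboxylase, Pcx, which makes oxaloacetate, was low at 0.496 ± 0.12 and 0.492 ± 0.154 FPKM and was not tested. Within a library Pdhb was 1.25 to 2.11 times Pdha1, Dlat 0.406 to 0.525 times Pdha1, and Pdhx 0.382 to 0.504 times Dlat.

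The means of 6 of the 7 other cycle enzymes were lower and that of 1 higher in treated cells (median log2 change -0.080), and 0 passed. Succinyl-CoA ligase has a common alpha subunit, Suclg1, and a beta subunit that sets the nucleotide it forms, Suclg2 for GTP and Sucla2 for ATP. Suclg2 (chromosome 6, 95473009 to 95718800, GRCm38) stood at 2.76, 2.84 and 2.74 FPKM in control libraries 1, 2 and 3 and at 2.74, 1.52 and 1.94 FPKM in treated libraries 1, 2 and 3. The control libraries lay close together, treated library 1 lay among them, and treated libraries 2 and 3 were below them. The group means were 2.78 ± 0.0577 and 2.07 ± 0.616 FPKM (SD, n = 3), a log2 change of -0.32 with SE 0.17 that did not pass (limma adjusted p = 0.99998). Without treated library 1 the change of Suclg2 was -0.47, with limma's unadjusted p = 0.0202 and adjusted p = 0.99903, and without treated library 2 it was -0.19, with limma's unadjusted p = 0.287. Sucla2 averaged 6.89 ± 0.676 and 7.20 ± 0.610 FPKM and Suclg1 7.29 ± 1.37 and 6.79 ± 0.530 FPKM.

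Mdh1, the cytosolic malate dehydrogenase, stood at 40.9, 34.7 and 35.4 FPKM in control cells and at 36.0, 25.9 and 37.2 FPKM in treated cells, with treated library 2 the lowest and the rest overlapping (log2 change -0.17, SE 0.15). Without treated library 2 the change of Mdh1 was -0.01, and with any other library left out it lay between -0.27 and -0.10. Mdh2, the mitochondrial form, averaged 20.4 ± 2.63 and 20.3 ± 2.44 FPKM. Citrate synthase, Cs, averaged 63.1 ± 4.87 and 60.0 ± 4.18 FPKM. Fumarase, Fh1, averaged 6.07 ± 0.852 and 5.29 ± 0.928 FPKM, and its means differed by less than the SD of either group.

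The malic enzymes make pyruvate from malate, and ATP citrate lyase, Acly, cleaves exported citrate to acetyl-CoA for lipid synthesis and acetylation. Me2, the mitochondrial malic enzyme, stood at 18.5, 16.4 and 15.2 FPKM in control libraries 1, 2 and 3 and at 16.3, 13.7 and 13.0 FPKM in treated libraries 1, 2 and 3. Each treated library was below the control library of its number, while treated library 1 was above control library 3. The log2 change was -0.21 with SE 0.13 (limma unadjusted p = 0.139). With the replicate number as a block its SE was 0.08 and its unadjusted p = 0.0390, and the adjusted p was 0.99103. With 1 library left out the change of Me2 lay between -0.30 and -0.14. The fibroblast markers were also highest in both libraries of number 1, and their part in the differences between numbers was not tested. Acly stood at 27.2, 27.7 and 23.9 FPKM in control cells and at 24.9, 26.7 and 22.5 FPKM in treated cells, with overlap. Me1, the cytosolic malic enzyme and the most variable member, was listed at 1.65, 0.855 and 0.614 FPKM in control cells and at 1.31, 0.549 and 0.965 FPKM in treated cells, highest in the libraries of number 1 in both groups.

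Among the enzymes that make or use 2-oxoglutarate, those of the 2-oxoglutarate dehydrogenase complex had changes of both signs. Dlst, its succinyltransferase (chromosome 12, 85110833 to 85134845), stood at 37.8, 37.6 and 42.5 FPKM in control libraries 1, 2 and 3 and at 36.8, 34.0 and 33.8 FPKM in treated libraries 1, 2 and 3. All treated libraries lay below all control libraries, and the nearest values of the groups were 37.6 and 36.8 FPKM. The means were 39.3 ± 2.80 and 34.9 ± 1.70 FPKM (SD, n = 3), 11.3% lower with R-2-HG (log2 change -0.17, SE 0.10, limma adjusted p = 0.99998). With 1 library left out the change of Dlst lay between -0.21 and -0.11, the latter without control library 3. Dld, the dihydrolipoamide dehydrogenase (chromosome 12, 31331277 to 31351453), is shared with the pyruvate and branched-chain dehydrogenase complexes. It stood at 37.4, 42.4 and 35.3 FPKM in control cells and at 44.7, 41.8 and 48.1 FPKM in treated cells. Treated libraries 1 and 3 were above all control libraries and treated library 2 was below control library 2. The log2 change of Dld was 0.22 with SE 0.11 and a 95% interval from -0.03 to 0.48, and its limma p of 0.0789 before adjustment was the smallest of the members. With 1 library left out the change of Dld lay between 0.17 and 0.30. Ogdh, the first enzyme of the complex, averaged 29.3 ± 3.52 and 29.2 ± 4.94 FPKM.

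Glutamate dehydrogenase, Glud1, averaged 57.3 ± 2.61 FPKM in control cells and 54.4 ± 3.31 FPKM in treated cells (SD, n = 3), and the groups overlapped. Of the aspartate transaminases of the malate-aspartate shuttle, mitochondrial Got2 averaged 33 ± 0.124 and 33.7 ± 1.36 FPKM and cytosolic Got1 13.5 ± 1.13 and 14.1 ± 3.41 FPKM. The alanine transaminases were low. Gpt, the cytosolic form, stood at 1.30, 1.81 and 0.723 FPKM in control cells and at 0.944, 0.752 and 0.898 FPKM in treated cells. Control library 3 was below all treated libraries, so the groups overlapped, and the log2 change of -0.26 had an SE of 0.20. It was -0.10 without control library 2, -0.45 without control library 3 (limma unadjusted p = 0.0457, adjusted p = 0.99977) and -0.44 with a pseudocount of 0.1 FPKM. Mitochondrial Gpt2 averaged 2.59 ± 0.349 and 2.40 ± 0.219 FPKM. The branched-chain transaminases pass the amino group of leucine, isoleucine and valine to 2-oxoglutarate. Mitochondrial Bcat2 averaged 8.05 ± 1.07 and 7.95 ± 1.22 FPKM. Cytosolic Bcat1 averaged 0.280 ± 0.0853 and 0.202 ± 0.0757 FPKM, below the filter.

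Glutamine synthetase, Glul (chromosome 1, 153899944 to 153909723), makes glutamine from glutamate and ammonia. It stood at 83.8, 84.9 and 87.2 FPKM in control libraries 1, 2 and 3 and at 81.6, 75.2 and 81.2 FPKM in treated libraries 1, 2 and 3. All treated libraries lay below all control libraries, by 7.03% between the means, which were 85.3 ± 1.76 and 79.3 ± 3.60 FPKM (SD, n = 3). The log2 change of -0.10 with SE 0.09 did not pass (limma adjusted p = 0.99998). Exons of Glul overlap Teddm2 on the opposite strand and a microRNA gene on the same strand.

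**Figure D3:**
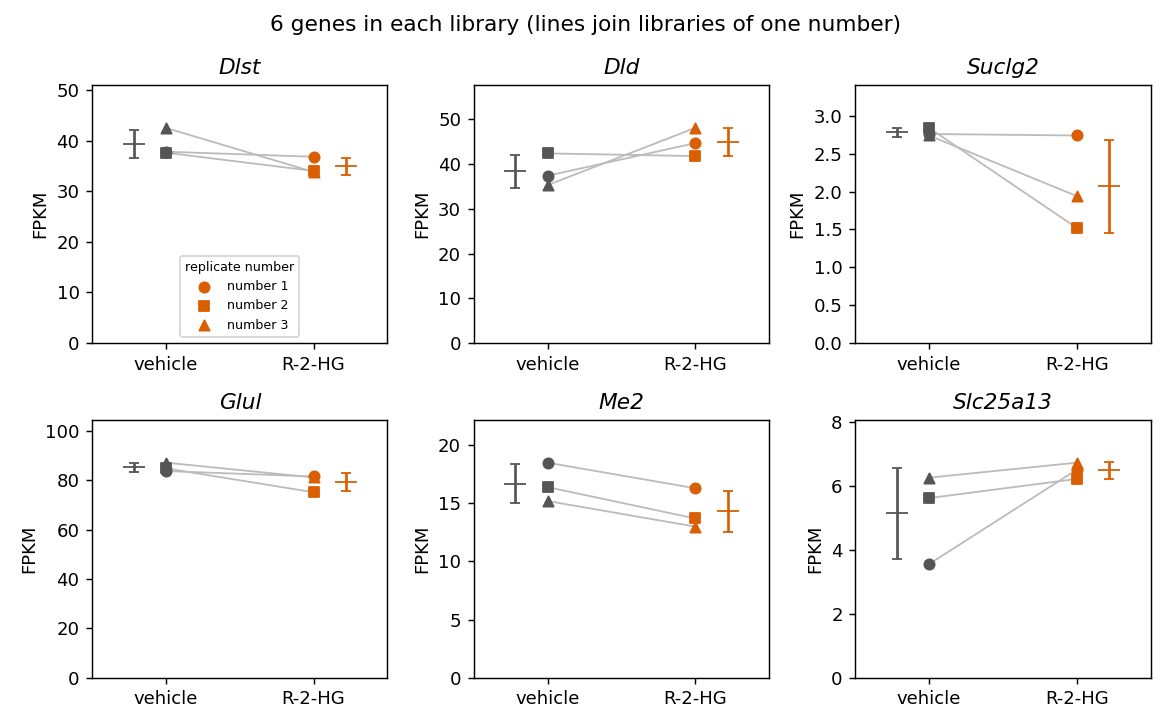
FPKM of Dlst, Dld, Suclg2, Glul, Me2 and Slc25a13 in each library, with marker shapes for the replicate number, lines joining libraries of one number, and dashes with bars for the group mean and SD (n = 3). The groups are apart for Dlst and Glul and overlap for the other 4.

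The means of 5 of the 7 carriers were higher and those of 2 lower in treated cells (median log2 change 0.106), and 0 passed. Slc25a13, one of the mitochondrial aspartate-glutamate carriers, stood at 3.56, 5.63 and 6.27 FPKM in control cells and at 6.52, 6.23 and 6.74 FPKM in treated cells. The low value of control library 1 stood apart from the other 5, which lay between 5.63 and 6.74 FPKM (log2 change 0.31, SE 0.18). Without control library 1 the change was 0.11, and without control library 3 it was 0.45. Slc25a12, its paralog, averaged 4.29 ± 0.460 and 4.69 ± 0.367 FPKM. Slc25a1, which exports citrate from mitochondria, stood at 12.9, 13.5 and 11.2 FPKM in control cells and at 12.2, 12.7 and 18.6 FPKM in treated cells. Treated library 3 was the highest of all 6 and the other 5 overlapped (log2 change 0.18, SE 0.17), and the change was 0.00 without treated library 3, 0.11 without control library 3 and 0.28 without treated library 1. The dicarboxylate carrier gene Slc25a10 averaged 3.20 ± 0.522 and 3.59 ± 0.576 FPKM, and Slc25a11, which exchanges malate for 2-oxoglutarate, 21 ± 1.38 and 19.7 ± 0.690 FPKM. At the plasma membrane, the glutamine transporter genes Slc38a2 and Slc1a5 averaged 26.9 ± 3.13 and 5.32 ± 1.05 FPKM in control cells and 28.4 ± 6.20 and 4.85 ± 1.27 FPKM in treated cells.

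Ratios of FPKM within a library compare subunits and paralogs without the scaling of the library, although an unlike mix of isoforms can shift them. The 13 ratios were picked with values of these genes known. Dlst to Dld was 1.01, 0.887 and 1.2 in control libraries 1, 2 and 3 and 0.824, 0.813 and 0.702 in treated libraries 1, 2 and 3, without overlap. Suclg2 to Sucla2 was 0.432, 0.371 and 0.412 in control cells and 0.355, 0.207 and 0.298 in treated cells, also without overlap. For each of these ratios the two-sided exact permutation test gave p = 0.1, the smallest that 3 libraries against 3 allow, and 0.65 after Benjamini-Hochberg adjustment over the 13. That test took no account of the replicate numbers. The groups of the other 11 ratios overlapped. In the transaminase and malic enzyme pairs, RNA of the mitochondrial form was the more abundant in every library. Got2 was 1.82 to 3.18 times Got1 and Gpt2 1.27 to 4.12 times Gpt. Bcat2 was 18.3 to 69.3 times Bcat1 and Me2 11.2 to 24.9 times Me1. Malate dehydrogenase RNA went the other way, with cytosolic Mdh1 at 1.47 to 1.95 times Mdh2. Bcat1 (mean 0.241 FPKM) and Me1 (0.992 FPKM) lay below the filter for testing and Gpt (1.07 FPKM) just above it, so ratios to them are uncertain.

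**Figure D4:**
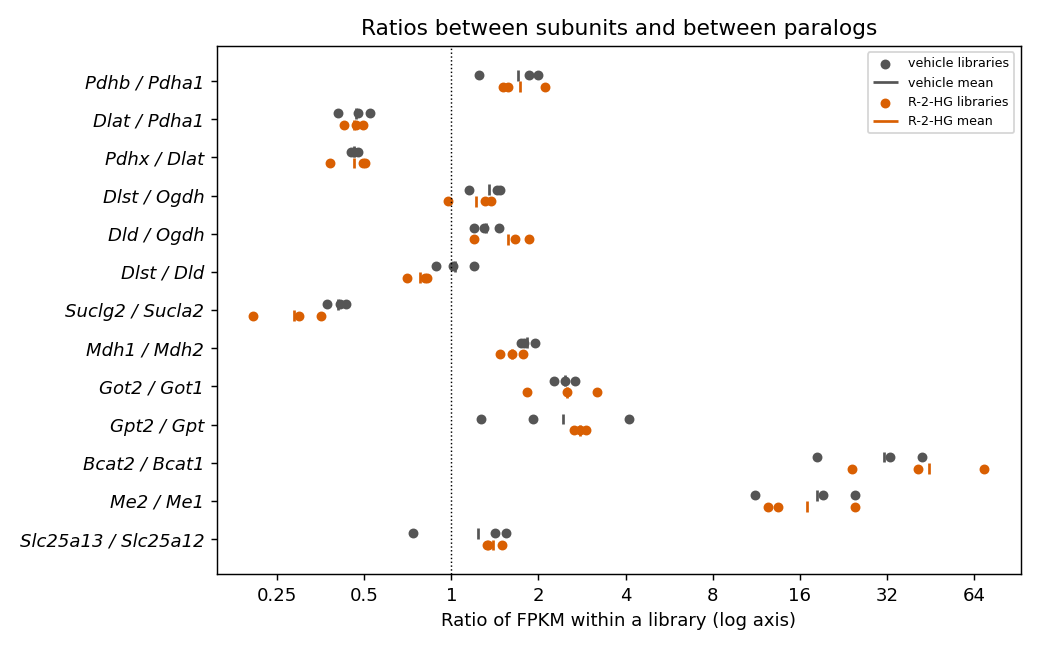
Ratio of FPKM between 2 genes within each library (log axis), with points for libraries, short lines for group means and a dotted line at 1. The groups are apart for Dlst over Dld and for Suclg2 over Sucla2 and overlap for the other 11 ratios.

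Other genes of the pathway, 42 in number and no members of the list, were read in the same fit. Of the 34 that were tested, 20 were higher and 14 lower by their means (median log2 change 0.025), and 0 passed, with 0 at an unadjusted p under 0.05. Among the 3 with the smallest p were Sdhc, a membrane subunit of succinate dehydrogenase (18.5 ± 4.11 and 15.6 ± 1.78 FPKM, SD, n = 3, control first), and Mpc2, a subunit of the mitochondrial pyruvate carrier (2.28 ± 0.342 and 2.63 ± 0.282 FPKM).

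Exons of 9 of the 33 members overlap another gene in GENCODE release M21, and Got2 has a named pseudogene. As the handling of strand and of shared reads is not given in the sources used here, values of these genes are uncertain.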

How the data were processed

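RNA-seq of 6 libraries was analysed, 3 given vehicle (control) and 3 given R-2-HG (treated). The deposited table holds the authors' FPKM values of 34745 genes in 1 column per library. The submitters' processing notes list Bowtie 0.12.2, Cuffdiff, mm8 and mm10 without role or order, and the annotation and the handling of strand were not given in the sources used here. No count test was run, as FPKM keeps no counts. Low FPKM of genes with 1 transcript and over 1000 bp of exon come in steps of 1 fragment. The steps give an estimate of the depth if values were scaled to mapped fragments alone. Of those low values 95.7% to 97.1% per library were whole to within 0.1 fragment.

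The 9701 genes whose mean reached 1 FPKM were fitted by limma 3.58.1 (R 4.3.3, trend and robust) to log2(FPKM + 1), two-sided, with Benjamini-Hochberg adjustment over all 9701 and a threshold of 0.05. The fit was tested on simulated data. Alternatives were other pseudocounts, filters and scaling, another variance model, the replicate block and each library left out. Tables and figures used Python 3.11.15, pandas 2.3.3, numpy 2.4.6 and matplotlib 3.10.9. Locations are from GENCODE M21 (GRCm38) and promoters from RefSeq (GRCm38.p6).

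Titles share replicate numbers 1 to 3 between groups. Deviations from group means correlated at 0.54, 0.37 and 0.36 for libraries of the same number and at -0.47 to 0.05 for others. The numbers may thus pair the libraries. The labels do not say so, and pairing was not tested, as these correlations depend on each other within groups of 3. Limma's SEs, intervals and p-values not marked as block come from the fit without it, which ignores any pairing. With the block the SE of Me2 was 0.08 instead of 0.13, and that of Slc25a1 was 0.17 in both fits.

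All members are accounted for. Values per library are given for members without overlap, the 2 with the smallest p in each role and the 3 with the widest range. Members, lists, ratios and motifs were chosen with earlier results of these data known. Some genes of the wider pathway are counted but not reported by name here.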

Additional observations from a re-analysis of the deposited data

How the results depend on the processing

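Under the 13 alternatives to the fit, 0 of the 33 genes, wherever tested, had an adjusted p under 0.05, and the smallest adjusted p of a member was 0.991, in the fit with the replicate block. That fit called 0 genes of all tested. With libraries left out 0 or 1 genes of all tested were called, Ube2l3 without treated library 1 and C5ar1 without treated library 3, neither of them a member. Leaving out 1 library at a time, the median log2 change ranged from -0.07 to -0.02 over all members, from -0.10 (without control library 1 or treated library 2) to 0.03 (without control library 2) over the 2-oxoglutarate enzymes, and from -0.07 to -0.01 over the other members, so the sign of the median of the 2-oxoglutarate enzymes rests on single libraries. The number of members without overlap was 2 with all libraries, 1 after quantile normalization and 3 to 7 with 1 library left out, where fewer libraries make overlap less likely. Uncalled members took the opposite sign in 27 of 384 combinations of member and alternative, and 18 members, among them Dlst, Dld, Suclg2, Glul and Me2, kept their sign in all that included them. The largest main change with a sign change was 0.119 in size. As the alternatives reuse the same libraries, a kept sign is no independent evidence of a difference. Counting Dld with the rest or Slc25a11 with the 2-oxoglutarate enzymes gave a median of -0.05 for the latter. At this depth a difference of about 1 fragment is not detectable.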

Other observations

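Isozymes of the wider pathway outside the list had unequal RNA levels. Pck2, the mitochondrial phosphoenolpyruvate carboxykinase, averaged 6.14 ± 1.01 FPKM in control and 6.99 ± 1.10 FPKM in treated cells (SD, n = 3), while cytosolic Pck1 was listed at 0 in all 6 libraries. Me3, the third malic enzyme, was likewise listed at 0 in all 6. Of the pyruvate dehydrogenase kinases, which inhibit the complex, Pdk3 averaged 4.55 ± 1.02 and 4.43 ± 1.21 FPKM and Pdk2 3.62 ± 0.902 and 3.83 ± 0.0601 FPKM, whereas Pdk4 stayed at or below 0.154 FPKM. Pdk1 stood at 1.85, 1.80 and 0.511 FPKM in control libraries 1, 2 and 3 and at 1.86, 1.72 and 0.755 FPKM in treated libraries 1, 2 and 3, lower in both libraries of number 3 than in the other 4. Those of these genes that were tested did not pass between the groups.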
